A study of Mus musculus with 45 samples.

Results

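The peroxiredoxin and thioredoxin system was followed here through 10 genes, taken by symbol from the count table of 28454 genes: Prdx1, Prdx2, Prdx3, Prdx4, Prdx5, Prdx6, Txn1, Txnrd1, Txnrd2 and Srxn1. All 10 were found, and all 10 passed the filter on low counts in every comparison. Peroxiredoxins reduce hydrogen peroxide and organic peroxides through a reactive cysteine. The typical members are then reduced by thioredoxin, and thioredoxin is reduced by thioredoxin reductase with electrons from NADPH. When peroxide over-oxidises that cysteine, sulfiredoxin, encoded by Srxn1, repairs it. The system runs beside the glutathione system, which draws directly on cysteine, so medium without cysteine and cystine acts on the supply of one of the partners.

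RNA was sequenced from mouse mammary tumour cell lines, all derived from MMTV-cMYC mice, in which the mouse mammary tumour virus promoter drives the Myc oncogene. MYAZ16.1e, MYAZ12.3i and MYAZ6.6g each came from a mammary tumour (the labels spell such names MYAZ16_1e and LM1_LM). Myc310 is 1 line from a mouse that bore multiple tumours. LM1, LM2 and LM3 were grown from lungs after Myc310 cells had been placed in the mammary fat pad of FVB/NJ mice, and LM1-LM, LM2-LM and LM3-LM from lungs after LM1 cells had been placed there. A line labelled MYAZ12.3i NDI1 is set beside its namesake, and what NDI1 stands for in it is not given in the sources used here. Each of these 11 lines was sequenced in control medium, and MYAZ16.1e, Myc310, LM1 and LM1-LM also after 6 h without cysteine and cystine, begun 24 h after seeding at 250000 cells per well. Every one of the 15 groups held 3 cultures, which the series text calls technical replicates. In the deprivation and NDI1 tests, p-values therefore measure the spread between cultures of a line and not between tumours. Tests between groups of lines hold no term for line. Their p-values mix the spread between lines with that between cultures, and count cultures of a line as independent. Myc310, LM and LM-LM descend from 1 founder line, so that a difference of the 3 from MYAZ cannot be told apart from a difference between that founder and the MYAZ tumours.

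The 45 libraries held 19517859 to 29019988 counts each, with a median of 22899900. Krt8 and Krt18, keratins of simple epithelium, were found in every library (216.9 to 1731 and 93.98 to 550.0 CPM, counts relative to library size after TMM scaling), whereas Epcam reached at most 21 counts and Cdh1 at most 6. The summed level of 10 epithelial markers was 339.2 to 1175 CPM over the MYAZ control libraries. It was 1383 to 1400 CPM over Myc310, 1105 to 2144 over LM and 1016 to 2464 over LM-LM. The summed level of 8 fibroblast markers was 7.464 to 98.07 CPM for MYAZ. For Myc310 it was 1.696 to 2.156 CPM, for LM 15.11 to 124.5, and for LM-LM 34.06 to 217.5. Taken singly, 5 fibroblast markers were tested against MYAZ in Myc310, LM and LM-LM. Of these 0, 1 and 1 were called higher and 4, 3 and 4 lower. Of 6 epithelial markers tested, 2, 3 and 3 were higher, with 2 lower in each comparison. Over all genes tested, 50.9%, 60.8% and 62.8% were called there. Fap was at 0 in every library and Dcn and Lum reached at most 3 and 1 counts, while Col3a1 reached 199.4 CPM. The leukocyte markers, mainly Cd68, summed to 4.172 to 6.312 CPM for MYAZ and 9.432 to 19.66 for the Myc310 lineage in control medium, where both of those tested were called higher, while Ptprc reached at most 5 counts. The endothelial markers summed to 3.568 to 7.079 CPM for MYAZ and at most 0.9669 for the lineage, and the alveolar markers to at most 6.627. The part of these markers in the results below was not tested. In bulk libraries such as these, fewer cells with a transcript and less transcript per cell cannot be told apart.

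Both thioredoxin reductases are selenoproteins: a TGA codon near the end of each coding sequence is read as selenocysteine, the residue that passes electrons on to thioredoxin. The last 12 codons, stop included, are shown because they hold the residue that sets the 2 reductases apart from the other members. They were read from annotated transcript sequences, with positions on GRCm38. The capitals mark the selenocysteine codon, with 1 codon between it and the stop in both genes (chr10:82896037-82896039 in Txnrd1 and chr16:18477772-18477774 in Txnrd2, both in coding exons on the plus strand).
Txnrd1: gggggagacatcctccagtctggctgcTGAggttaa
Txnrd2: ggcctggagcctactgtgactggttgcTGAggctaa

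Promoter windows, from 250 bases before to 50 bases after each RefSeq start on GRCm38.p6, were found for 9 of the 10 members (11 windows, 3 of them of Txnrd1; Prdx6 had none). They were searched on both strands for the letters TGACNNNGC, the core of the antioxidant response element bound by the transcription factor NRF2, because Srxn1 and Txnrd1 are known targets of that factor. The core was found in 3 of the 11 windows, and in 12.4% of the 32851 windows of all genes. The 3 stretches are printed with the core in capitals, as it reads on the gene's own strand, where it is the reverse complement of the pattern.
Srxn1: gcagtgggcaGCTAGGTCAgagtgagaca
Prdx1: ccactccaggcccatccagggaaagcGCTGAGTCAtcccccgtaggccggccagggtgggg
Txnrd1: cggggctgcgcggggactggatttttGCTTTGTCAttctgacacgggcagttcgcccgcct
The Srxn1 stretch (chr2:152105542-152105570, plus strand) begins in the 5′ untranslated part of the first exon, its core 29 bases after the start. The Prdx1 stretch (chr4:116685440-116685500, plus strand) has its core 133 bases before the start, and its letters TGACTCAGC also hold TGACTCA, the site of AP-1 factors. The Txnrd1 stretch (chr10:82859088-82859148, plus strand) has its core 92 bases before one of the gene's starts. Neither of the last 2 stretches overlaps an annotated exon. The letters TGATGNAA, the core bound by C/EBP and ATF factors, were in none of the 11 member windows and in 3.97% of all windows, and the E-box CACGTG, a site of MYC, was in 1, that of Prdx4, against 7.15%. A match is a run of letters and does not show that a factor binds there.

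Per kilobase of exon, and averaged over the 10 lines of the tumour series in control medium, Txn1, the cytosolic thioredoxin, was the most abundant of the 10 (415.7 CPM per kb, line means 337.7 to 470.2), followed by Prdx1, the main cytosolic peroxiredoxin (185.8, 128.5 to 215.4). Prdx6, which uses glutathione in place of thioredoxin as its reductant, came next at 75.53 CPM per kb, then Prdx3 of the mitochondrion at 67.94 and Prdx2 of the cytosol at 57.26. Txnrd1, the cytosolic reductase, stood at 40.19 CPM per kb, Prdx5 at 25.84, Srxn1 at 23.84 and Prdx4 of the endoplasmic reticulum at 20.06. Txnrd2, the mitochondrial reductase, was lowest at 6.302 CPM per kb. The exon length is that of all annotated exons of a gene together, which sets these values lower for a gene with many rare exons.

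**Figure D1:**
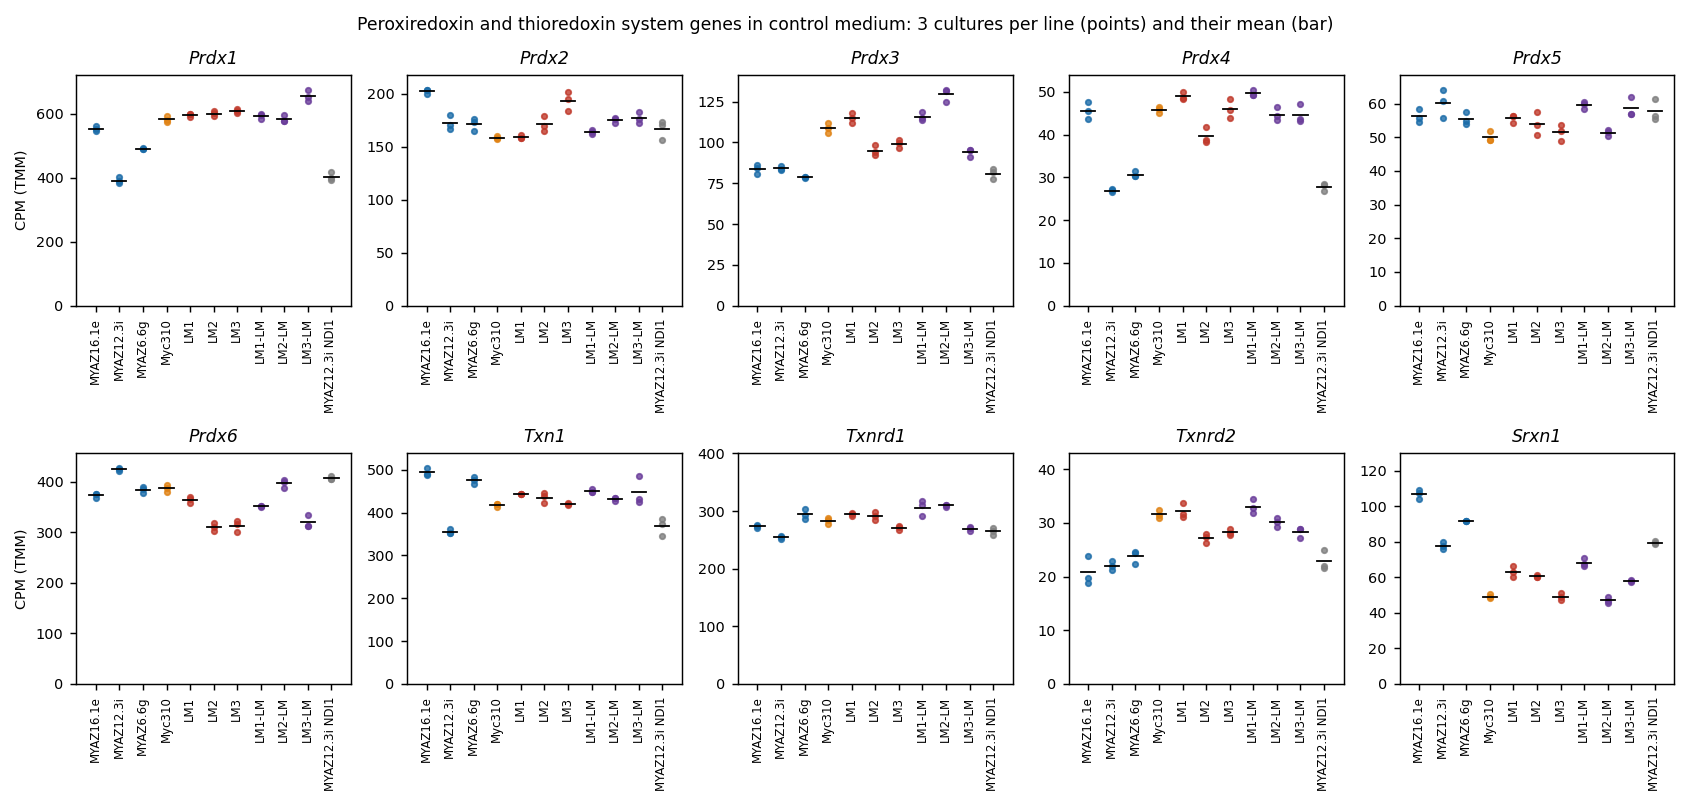
Levels of the 10 genes in control medium, in CPM on axes that start at 0, for each of the 11 lines (blue MYAZ, orange Myc310, red LM, purple LM-LM, grey MYAZ12.3i NDI1), with 3 cultures as points and their mean as a bar. Srxn1 sits at 77.83 to 107.0 CPM in the MYAZ line means and at 47.05 to 68.28 in the lines of the Myc310 lineage.

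The first question was how the genes stood along the series from primary tumour lines to lines grown from lung metastases, in control medium. Srxn1 (ENSMUSG00000032802, chr2:152105516-152111376, plus strand) had the widest spread between lines, 2.274-fold from the highest line mean to the lowest. Its 3 cultures gave 109.3, 104.1 and 107.6 CPM in MYAZ16.1e, 91.52, 92.03 and 91.72 in MYAZ6.6g, and 77.65, 79.87 and 75.96 in MYAZ12.3i. In Myc310 they gave 48.21, 50.46 and 49.02 CPM. The line means were 63.31, 60.53 and 49.08 CPM in LM1, LM2 and LM3, and 68.28, 47.05 and 58.09 in LM1-LM, LM2-LM and LM3-LM. All MYAZ cultures were above all cultures of the other 7 lines. Neighbours in the order of line means did not overlap from MYAZ16.1e through MYAZ6.6g and MYAZ12.3i to LM1-LM, whereas LM1-LM overlapped LM1, LM1 overlapped LM2, and Myc310, LM3 and LM2-LM overlapped in turn. LM3-LM lay between those 2 runs and overlapped neither. Over lines, Srxn1 was 92.19 ± 14.59 CPM in MYAZ, 57.64 ± 7.544 in LM and 57.81 ± 10.62 in LM-LM (SD, n = 3 lines each).

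Differences were tested with edgeR's quasi-likelihood test on the counts, with p-values adjusted by Benjamini-Hochberg over all genes tested, and a gene is called where the adjusted p is under 0.05. Set against MYAZ, Srxn1 had a log2 fold change of -0.91 for Myc310 (SE 0.13, edgeR adjusted p = 1.386e-06). For LM it was -0.68 (SE 0.088, edgeR adjusted p = 1.254e-07), and for LM-LM -0.69 (SE 0.088, edgeR adjusted p = 8.129e-08). With the counts of a line summed, so that lines and not cultures were the replicates, the edgeR adjusted p was 0.0612 for Myc310, a single line, 0.023 for LM and 0.02041 for LM-LM.

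Txnrd2, Prdx3, Prdx1 and Prdx4 moved the other way, so that direction was not particular to mitochondrial members. Prdx5, found partly in mitochondria, was lower in Myc310, as given below. Txnrd2 (ENSMUSG00000075704, chr16:18426384-18479073, plus strand) was at 20.81, 22.05 and 23.76 CPM in the means of MYAZ16.1e, MYAZ12.3i and MYAZ6.6g, at 31.59 in Myc310, at 32.16, 27.22 and 28.25 in LM1, LM2 and LM3, and at 33.06, 30.11 and 28.34 in LM1-LM, LM2-LM and LM3-LM. Its highest MYAZ culture, at 24.59 CPM, lay under its lowest culture in the other lines, at 26.31. Myc310 stood above MYAZ by 0.50 on the log2 scale (SE 0.073, edgeR adjusted p = 1.342e-06). The lung-derived groups stood above it by 0.40 for LM (SE 0.053, edgeR adjusted p = 2.04e-07) and 0.44 for LM-LM (SE 0.053, edgeR adjusted p = 2.717e-08). With counts summed per line the edgeR adjusted p was 0.05128, 0.01904 and 0.01119.

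Prdx3 (ENSMUSG00000024997, chr19:60864051-60874556, minus strand), which removes peroxide in the mitochondrial matrix, was at 83.95, 84.05 and 78.63 CPM in MYAZ16.1e, MYAZ12.3i and MYAZ6.6g and at 108.8 in Myc310. The LM line means were 115.0, 95.02 and 99.3 CPM, and the LM-LM line means 115.7, 129.8 and 93.89. Every one of these means was above the MYAZ means, though the LM-LM lines differed among themselves by more than the distance of LM3-LM from MYAZ. The log2 differences from MYAZ were 0.40, 0.33 and 0.44 for Myc310, LM and LM-LM (edgeR adjusted p = 0.0002068, 2.92e-05 and 2.527e-07). With counts summed per line only the LM-LM difference had an edgeR adjusted p under the threshold of 0.05, at 0.01786, against 0.1348 and 0.05701.

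Of the other peroxiredoxins, Prdx1 (ENSMUSG00000028691, chr4:116685544-116700822, plus strand) and Prdx4 (ENSMUSG00000025289, chrX:155323918-155340754, minus strand) were higher than in MYAZ in all 3 comparisons. Prdx1 line means were 553.2, 391.0 and 490.2 CPM in MYAZ16.1e, MYAZ12.3i and MYAZ6.6g and 582.5 to 655.6 in the other lines. Its log2 fold changes were 0.28, 0.33 and 0.34 (edgeR adjusted p = 0.006752, 2.496e-05 and 2.216e-05 for Myc310, LM and LM-LM). Prdx4 overlapped between the groups, since MYAZ16.1e, at 45.56 CPM, lay among the Myc310, LM and LM-LM lines (39.64 to 49.69), and the other MYAZ lines lay below (26.91 and 30.62). Its log2 fold changes were 0.41, 0.39 and 0.41 (edgeR adjusted p = 0.01104, 0.001012 and 0.0004588). With counts summed per line neither gene was called in any of the 3 comparisons, the edgeR adjusted p running from 0.06091 to 0.3117. For Myc310 both calls were also lost with the libraries of the groups compared alone. There the Prdx1 call was lost without replicate 1, and the Prdx4 call without replicate 2, without MYAZ12.3i and without MYAZ6.6g.

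Prdx6 (ENSMUSG00000026701, chr1:161240112-161251219, minus strand) was lower in LM and LM-LM than in MYAZ. Its line means were 373.7, 425.3 and 384.8 CPM in MYAZ16.1e, MYAZ12.3i and MYAZ6.6g, 364.8, 310.5 and 313.2 in LM1, LM2 and LM3, and 351.4, 397.5 and 320.0 in LM1-LM, LM2-LM and LM3-LM, so LM2-LM stood among the MYAZ lines. The log2 fold change was -0.26 in LM (edgeR adjusted p = 3.869e-05) and -0.17 in LM-LM (edgeR adjusted p = 0.004289), and -0.03 in Myc310 (edgeR adjusted p = 0.7275). With counts summed per line neither call was kept (edgeR adjusted p = 0.1045 and 0.311). The LM-LM call was also lost without the line LM3-LM and without MYAZ12.3i. Prdx2 (ENSMUSG00000005161, chr8:84969587-84974834, plus strand) and Prdx5 (ENSMUSG00000024953, chr19:6906697-6910106, minus strand), the latter found in mitochondria, peroxisomes and cytosol, were lower in Myc310 than in MYAZ, at log2 fold changes of -0.20 and -0.20 (edgeR adjusted p = 0.02307 and 0.009069). Both calls were lost without replicate 1, without replicate 2 and without replicate 3 of every line. In LM the values were -0.06 and -0.09, and in LM-LM -0.10 and -0.04, with edgeR adjusted p from 0.06739 to 0.4676. Prdx5 was called for LM with RLE scaling, with DESeq2, with the libraries of those groups alone and without the line MYAZ6.6g. Prdx2 was called for LM without the line LM3, and for LM-LM without MYAZ12.3i or without MYAZ6.6g. LM and Myc310 themselves were not called apart for Prdx2 (0.15, edgeR adjusted p = 0.302) or Prdx5 (0.10, 0.3921) with all lines, and without LM1 Prdx2 was called.

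Txn1 (ENSMUSG00000028367, chr4:57943373-57956411, minus strand) was called in none of the comparisons with MYAZ when all lines were used. Without the line MYAZ12.3i it was called lower in all 3, at log2 fold changes of -0.22 for Myc310, -0.16 for LM and -0.15 for LM-LM. It spread within MYAZ from 355.0 CPM in MYAZ12.3i to 494.2 in MYAZ16.1e, which is wider than the 418.0 to 450.0 covered by the other 7 lines. Its log2 fold changes were -0.08, -0.03 and -0.01, and the interval of 2 standard errors covered -0.25 to 0.086 for Myc310, -0.15 to 0.091 for LM, and -0.13 to 0.11 for LM-LM. Txnrd1 (ENSMUSG00000020250, chr10:82833951-82897712, plus strand), which shares its strand with the overlapping gene Eid3, had line means of 254.3 to 309.7 CPM. Its only call with all lines was a log2 fold change of 0.09 in LM-LM (edgeR adjusted p = 0.04408), which was lost with RLE scaling, with DESeq2, with counts summed per line and without replicate 1, 2 or 3. Without the line MYAZ6.6g it was called higher in LM.

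As a set, 4 members were higher and 3 lower for Myc310 than for MYAZ, where 50.9% of all 13795 genes tested were called (23.8% higher and 27.1% lower). For LM 4 were higher and 2 lower, where 60.8% of genes were called (30.3% higher and 30.5% lower). For LM-LM 5 were higher and 2 lower, where 62.8% were called (30.5% higher and 32.3% lower). The 3 comparisons share the MYAZ libraries. The median log2 fold change of the members was 0.01, 0.02 and 0.04, beside -0.02, 0.00 and -0.01 over all genes tested. With counts summed per line, 0 members were called in Myc310 (8.92% of genes), 2 in LM (23.6%) and 3 in LM-LM (26.4%). Line means did not overlap for 5 members between LM and MYAZ (42.8% of genes) and for 4 between LM-LM and MYAZ (42.9%). These shares lie near the background, so the count says little of the members as a set, and the values of the single genes carry the description.

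**Figure D2:**
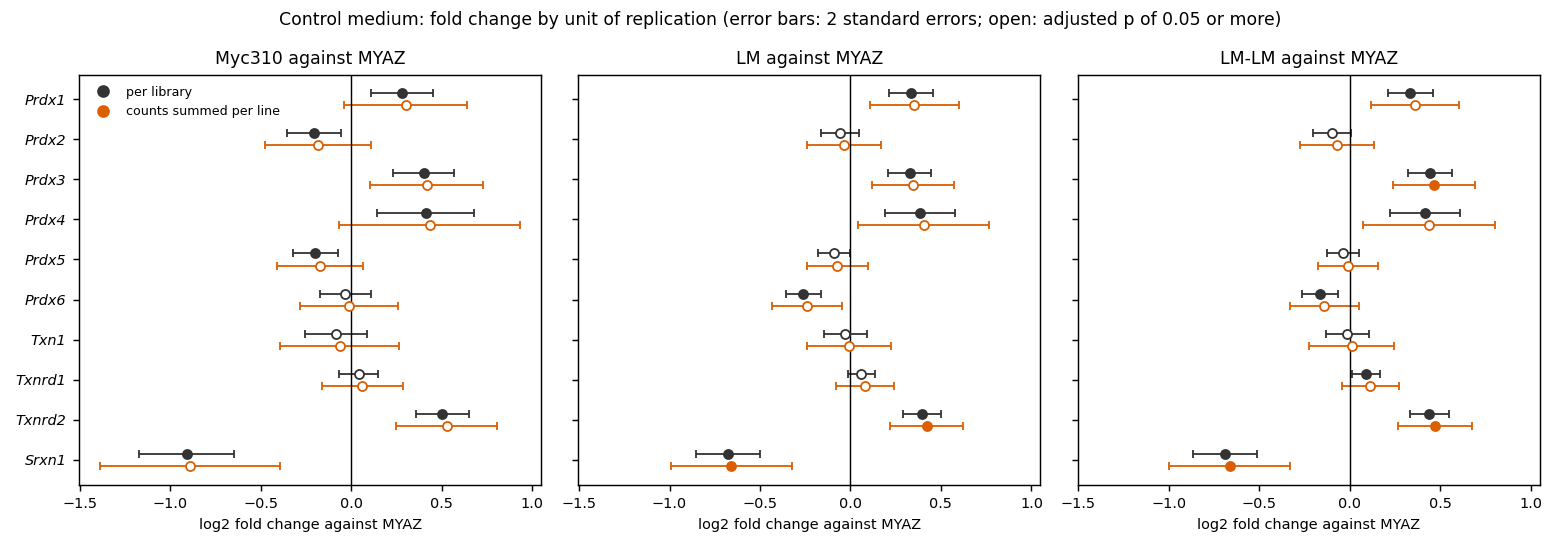
Log2 fold change against MYAZ of each gene (horizontal axis) in Myc310, LM and LM-LM, with libraries as replicates (black) and with counts summed per line (orange), bars of 2 standard errors, open points where the edgeR adjusted p was 0.05 or more. Srxn1 lies left of 0 in all 3 panels (-0.91, -0.68 and -0.69 with libraries), and Txnrd2 right of 0 (0.50, 0.40 and 0.44).

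Within the Myc310 lineage single lines stood apart, as Srxn1 at 68.28 CPM in LM1-LM and 47.05 in LM2-LM, and Prdx3 at 129.8 in LM2-LM and 93.89 in LM3-LM, without overlap of their cultures. Between the groups of lines, of the 10, Prdx6 alone was called between LM and Myc310 (log2 fold change -0.23, SE 0.069, edgeR adjusted p = 0.04833), in a comparison that called 4.94% of genes (3.43% higher and 1.51% lower). Leaving out replicate 1, 2 or 3, or the line LM2 or LM3, ended that call, as did summing counts per line, which left 0.0125% of genes called. Srxn1 was at a log2 fold change of 0.23 (interval of 2 standard errors -0.022 to 0.49), which the test did not call, and the other members lay between -0.11 and 0.15. Between LM-LM and LM 0 members were called by edgeR, against 0.768% of genes (0.268% higher and 0.5% lower). At an unadjusted p under 0.05 the count was 0 as well, and DESeq2 also called 0. The largest distance was that of Prdx3, at 0.12 (interval -0.0052 to 0.24, edgeR adjusted p = 0.4878), and the other members lay between -0.04 and 0.09. Without the line LM3-LM, Prdx3 and Prdx6 were called. With counts summed per line 0.0% of genes were called, and line means separated 0 members, where 4.74% of genes were separated.

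The second question was how the same genes answered 6 h without cysteine and cystine, in 4 lines. Between 6 and 10 of the 10 genes were called in each line, beside a background in which most genes moved. In MYAZ16.1e 1 gene rose and 5 fell, where 53.7% of 13400 genes were called (26.6% higher and 27.1% lower). In Myc310 2 rose and 7 fell, where 66.8% were called (32.8% higher and 33.9% lower). In LM1 3 rose and 7 fell, where 71.1% were called (35.8% higher and 35.3% lower). In LM1-LM 3 rose and 6 fell, where 72.4% were called (36.5% higher and 35.9% lower). Control and deprived cultures did not overlap for 6, 9, 10 and 10 members in the same order, as in 62.3%, 74.2%, 78.8% and 79.4% of genes. The median log2 fold change over the members was -0.13, -0.21, -0.15 and -0.11 in that order, beside 0.00, -0.01, -0.00 and 0.00 over all genes tested. Of 6 epithelial markers tested, 4, 3, 3 and 3 were higher after deprivation and 0, 0, 1 and 1 lower. Their median log2 fold change was 0.19, 0.47, 0.37 and 0.35. Of 5 fibroblast markers tested, 1 was higher in each line, with 0, 0, 2 and 2 lower (median 0.00, 0.05, -0.87 and -0.60). The part of these markers in the results on deprivation was not tested. Prdx1, Prdx2, Prdx5, Prdx6 and Txn1 fell in every line and Srxn1 rose in every line, while Txnrd2 rose in Myc310, LM1 and LM1-LM, and Txnrd1 in LM1 and LM1-LM.

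**Figure D3:**
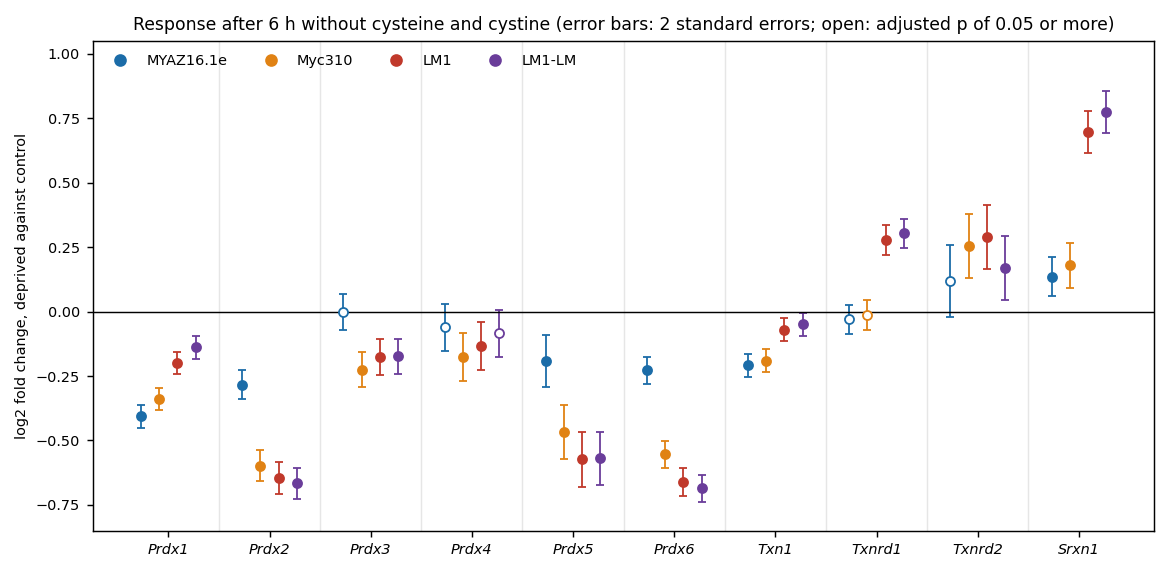
Log2 fold change of each gene after 6 h without cysteine and cystine (vertical axis) in MYAZ16.1e (blue), Myc310 (orange), LM1 (red) and LM1-LM (purple), with bars of 2 standard errors and open points where the edgeR adjusted p was 0.05 or more. Prdx2, Prdx5 and Prdx6 lie lower in Myc310, LM1 and LM1-LM than in MYAZ16.1e, while Srxn1 and Txnrd1 lie higher in LM1 and LM1-LM (0.70 and 0.77 for Srxn1) than in MYAZ16.1e and Myc310 (0.14 and 0.18).

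Srxn1 rose in all 4 lines, and rose further in the lung-derived ones. In LM1 the control cultures were at 63.1, 60.16 and 66.68 CPM and the deprived cultures at 100.3, 98.15 and 101.8. In LM1-LM they were at 67.5, 70.76 and 66.6 against 108.0, 112.0 and 121.7. In MYAZ16.1e they were at 109.3, 104.1 and 107.6 against 120.2, 116.2 and 117.6, and in Myc310 at 48.21, 50.46 and 49.02 against 55.02, 56.1 and 57.53. In each line every deprived culture was above every control culture. Deprived LM1, at 100.1 ± 1.83 CPM, and deprived LM1-LM, at 113.9 ± 7.034, stood beside the 107.0 ± 2.658 of MYAZ16.1e in control medium, while deprived Myc310 stood at 56.22 ± 1.259 (SD, n = 3 cultures each).

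The log2 fold change of Srxn1 was 0.14 for MYAZ16.1e (SE 0.038, edgeR adjusted p = 0.003391) and 0.18 for Myc310 (SE 0.044, edgeR adjusted p = 0.0006987). For LM1 it was 0.70 (SE 0.041, edgeR adjusted p = 1.247e-15), and for LM1-LM 0.77 (SE 0.040, edgeR adjusted p = 4.101e-17). The response was larger than that of MYAZ16.1e by 0.56 in LM1 (SE 0.056, edgeR adjusted p = 7.857e-10) and by 0.64 in LM1-LM (SE 0.055, 3.107e-11), and by 0.04 in Myc310, which the test did not call (SE 0.058, 0.6031). A direct contrast added after the data were seen gave 0.52 for LM1 against Myc310 (SE 0.060, edgeR adjusted p = 1.413e-07), and 0.08 for LM1-LM against LM1 (interval -0.037 to 0.19, edgeR adjusted p = 0.6728).

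Txnrd1 shared this split. In LM1 the control cultures gave 292.2, 295.1 and 296.0 CPM and the deprived cultures 348.1, 352.2 and 344.1, and in LM1-LM 290.9, 310.4 and 316.8 against 372.5, 355.4 and 374.9. In MYAZ16.1e they gave 274.3, 270.7 and 275.0 against 261.6, 269.5 and 274.6, and in Myc310 276.8, 284.8 and 287.9 against 276.0, 286.8 and 286.5, where control and deprived cultures overlapped. The log2 fold change was 0.28 in LM1 (SE 0.029, edgeR adjusted p = 5.265e-10) and 0.30 in LM1-LM (SE 0.028, 6.002e-11), beside -0.03 in MYAZ16.1e and -0.01 in Myc310 (edgeR adjusted p = 0.3953 and 0.6998). The difference of responses from MYAZ16.1e was 0.31 in LM1 and 0.33 in LM1-LM (edgeR adjusted p = 1.608e-07 and 2.911e-08), and that of LM1 from Myc310 was 0.29 (2.791e-06).

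Txnrd2 rose in Myc310, from 30.85, 31.46 and 32.48 to 35.79, 37.82 and 40.26 CPM, at a log2 fold change of 0.25 (SE 0.062, edgeR adjusted p = 0.0006508). In LM1 it was 0.29 (SE 0.063, edgeR adjusted p = 0.0001459) and in LM1-LM 0.17 (SE 0.062, 0.01562), while MYAZ16.1e gave 0.12 (0.1617), where cultures overlapped and where leaving out replicate 1 called it. No difference in response between lines was called for Txnrd2. The LM1-LM call was lost without replicate 2 and without replicate 3.

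Prdx2, Prdx5 and Prdx6 fell in all 4 lines, and further in the Myc310 lineage. Prdx6 was at 377.0, 368.8 and 375.3 CPM in control and 321.6, 333.6 and 306.3 in deprived MYAZ16.1e, and at 393.8, 387.1 and 380.8 against 271.3, 259.9 and 268.2 in Myc310. In LM1 it was at 365.8, 358.0 and 370.7 against 225.6, 224.8 and 224.7 CPM, and in LM1-LM at 349.5, 352.3 and 352.4 against 208.7, 221.2 and 208.8. Control and deprived cultures did not overlap in any line. Its log2 fold change was -0.23, -0.55, -0.66 and -0.69 in the order MYAZ16.1e, Myc310, LM1, LM1-LM, the last with SE 0.026 and edgeR adjusted p = 2.86e-20.

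Mean Prdx2 levels over 3 cultures were 202.6 CPM in control and 167.2 in deprived MYAZ16.1e, 158.7 and 105.8 in Myc310, 159.5 and 99.47 in LM1, and 164.2 and 100.7 in LM1-LM, which gave log2 fold changes of -0.28, -0.60, -0.65 and -0.67. For Prdx5 the pairs of means were 56.23 and 49.34, 50.14 and 36.62, 55.62 and 36.45, and 59.55 and 38.94 CPM, with log2 fold changes of -0.19, -0.47, -0.57 and -0.57. Set against the MYAZ16.1e line, the response of Myc310 differed by -0.31, -0.27 and -0.32 for Prdx2, Prdx5 and Prdx6, at edgeR adjusted p = 3.365e-07, 0.00311 and 2.227e-08. The Prdx5 call was lost without replicate 2. In LM1 the differences were -0.36, -0.38 and -0.43, and in LM1-LM -0.38, -0.38 and -0.46. Between LM1 and Myc310 Prdx6 alone of the 3 was called, at -0.11 (edgeR adjusted p = 0.03081), and that call was lost without a filter on low counts, without replicate 1 and without replicate 3. Prdx2 and Prdx5 overlap genes on the other strand (Rnaseh2a and Junb, and Trmt112). The library kit keeps strand, but the strand setting of the counting is not given in the sources used here.

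Prdx1 and Txn1 fell less in the lung-derived lines than in MYAZ16.1e. Prdx1 was at 544.5, 552.2 and 563.0 CPM in control and 415.1, 426.5 and 416.1 in deprived MYAZ16.1e cultures, and at 598.4, 594.9 and 582.0 against 524.0, 529.6 and 517.0 in LM1-LM. The log2 fold change was -0.41, -0.34, -0.20 and -0.14 in the 4 lines (edgeR adjusted p = 9.261e-16, 2.023e-14, 2.179e-09 and 1.571e-06). Against MYAZ16.1e the fall was smaller by a log2 difference of 0.21 in LM1 and 0.27 in LM1-LM (edgeR adjusted p = 1.649e-06 and 1.449e-08), and the 0.07 of Myc310 was not called (0.09138) by edgeR but was called by DESeq2. Txn1 had log2 fold changes of -0.21, -0.19, -0.07 and -0.05 (edgeR adjusted p = 3.513e-09, 1.194e-08, 0.007045 and 0.04717). Its call in LM1 was lost without replicate 2, and that in LM1-LM without replicate 1, 2 or 3. Its response differed from that in MYAZ16.1e by 0.14 in LM1 and 0.16 in LM1-LM (edgeR adjusted p = 0.0004989 and 9.249e-05), and the 0.02 of Myc310 was not called (0.7094).

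Prdx3 was not called in MYAZ16.1e (80.86, 86.48 and 84.5 CPM in control, 86.28, 83.4 and 83.0 deprived; edgeR adjusted p = 0.9759), and fell in Myc310, LM1 and LM1-LM at log2 fold changes of -0.23, -0.18 and -0.17 (1.033e-06, 3.601e-05 and 4.068e-05). Prdx4 fell in Myc310 (-0.17, edgeR adjusted p = 0.001521) and LM1 (-0.13, 0.01263), was at -0.09 in LM1-LM (0.096) and at -0.06 in MYAZ16.1e (0.2786). The LM1 call was lost without replicate 1. RLE scaling called Prdx4 in LM1-LM, and leaving out replicate 2 called it in MYAZ16.1e. No difference between lines was called for Prdx4.

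**Figure D4:**
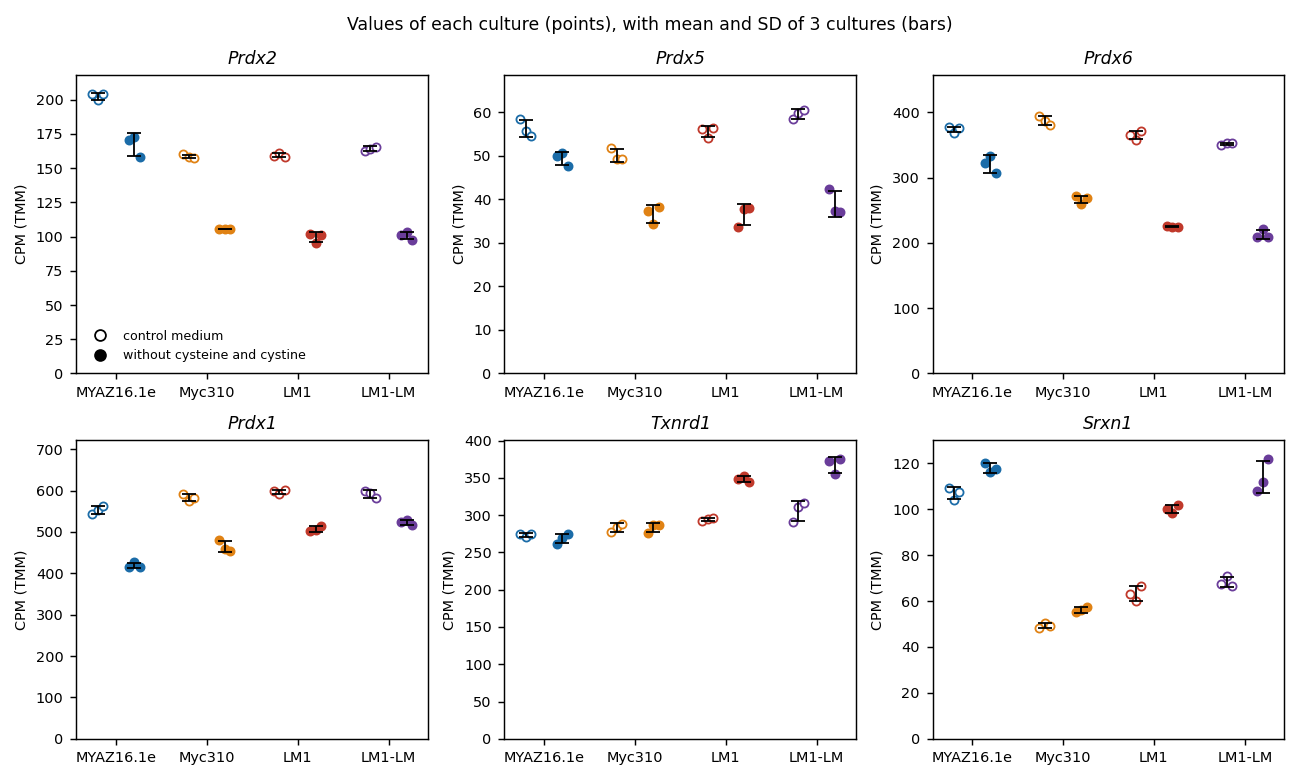
CPM of 6 of the genes in each culture of the 4 lines tested for deprivation (open points control medium, filled points without cysteine and cystine), with mean and SD of 3 cultures as bars and axes that start at 0. Control and deprived points are apart in all 4 lines for Prdx2, Prdx5, Prdx6, Prdx1 and Srxn1, and for Txnrd1 in LM1 and LM1-LM but not in MYAZ16.1e and Myc310.

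Counting the differences of response from MYAZ16.1e, 4 members were called for Myc310, all more negative, where 40.3% of genes were called (19.8% more positive and 20.4% more negative). For LM1 4 were more positive and 4 more negative, where 52.2% were called (26.9% and 25.3%), and for LM1-LM also 4 and 4, where 54.8% were called (28.4% and 26.4%). These contrasts share the MYAZ16.1e libraries. Of LM1 against Myc310, 5 members were called, 4 with a more positive response and 1 with a more negative one, where 24.5% of genes were called (14.5% and 9.96%). Of LM1-LM against LM1, edgeR called 0, where 0.769% of genes were called (0.328% and 0.44%), 0 reached an unadjusted p under 0.05, and DESeq2 called 0. The deprivation response of each group of lines rests on 1 line, so the differences describe these 4 lines.

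In the line labelled MYAZ12.3i NDI1, edgeR called 0 of the 10 members against MYAZ12.3i, where 17.4% of 12841 genes were called (8.14% higher and 9.27% lower). At an unadjusted p under 0.05 the count was 1, Prdx6, at a log2 fold change of -0.06 (405.2, 412.6 and 406.7 CPM against 427.7, 426.5 and 421.7), and DESeq2 called 0. The 10 log2 fold changes lay between -0.07 and 0.06. Prdx6 and Txnrd1 (258.9, 270.7 and 265.8 against 255.7, 256.0 and 251.3 CPM) were the 2 members whose libraries did not overlap, as in 34.8% of genes.

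Neighbouring genes of the pathway were followed through lists chosen by function. The counts in each list stand against the 53.7%, 66.8%, 71.1% and 72.4% of all genes called after deprivation, line by line in the order used above, of which 26.6%, 32.8%, 35.8% and 36.5% were higher and 27.1%, 33.9%, 35.3% and 35.9% lower, so a list with 5 or 6 of 8 genes called lies near the background. Of 8 other thioredoxin proteins, 1 was higher and 4 were lower after deprivation in MYAZ16.1e, and 3 were higher and 5 lower in each of Myc310, LM1 and LM1-LM (median log2 fold change -0.15, -0.50, -0.55 and -0.50). Txnip, an arrestin-like protein that binds and inhibits thioredoxin, rose in every line (log2 fold changes 1.14, 1.06, 1.36 and 1.61), with means of 70.64 CPM in control and 155.9 in deprived MYAZ16.1e, and 105.5 and 314.2 in LM1-LM. Txnrd3, the third reductase, fell in Myc310, LM1 and LM1-LM at log2 fold changes of -1.12, -1.25 and -1.32, and averaged 17.23 CPM in control and 15.63 in deprived MYAZ16.1e. In control medium Txnip was higher in Myc310, LM and LM-LM than in MYAZ, at 1.18, 1.08 and 0.83, and Txnrd3 lower, at -0.57, -0.91 and -1.21.

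Of the 4 glutaredoxins, which use glutathione, 3 fell in every line after deprivation, Glrx5, of mitochondrial iron-sulfur assembly, at -0.35, -0.75, -0.68 and -0.74, and Glrx at -0.54, -0.45, -0.52 and -0.67. Of the 8 thioredoxin clients, Rrm2b, the p53-inducible ribonucleotide reductase subunit, rose in each line (1.29, 1.52, 1.47 and 1.17), while Rrm2, the subunit of dividing cells, fell in MYAZ16.1e, LM1 and LM1-LM (-0.55, -0.57 and -0.61). In Myc310 Rrm2 was also lower, at 577.3 to 610.5 CPM in deprived and 759.8 to 782.9 in control cultures. Over that list 2 to 3 were higher and 3 lower in each line. Of the 3 sestrins, Sesn2, a target of the amino acid response, rose by 3.44, 2.40, 2.29 and 2.26, from 19.59 to 213.5 CPM in MYAZ16.1e, and Sesn1 fell in every line (-0.55, -1.18, -0.96 and -1.10).

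Of the 7 genes measured for oxidative folding in the endoplasmic reticulum, Ero1a, which makes peroxide while it oxidises protein disulfide isomerase, rose in each line (1.36, 1.91, 2.16 and 2.13). The list's counts were 1 higher with 6 lower for MYAZ16.1e, 1 with 5 for Myc310, 2 with 4 for LM1 and 3 with 4 for LM1-LM (median log2 fold change -0.20, -0.20, -0.16 and -0.09). Prdx4, the peroxiredoxin of that compartment, is described above. In the selenocysteine list, which serves both reductases, Sepsecs rose in MYAZ16.1e, Myc310 and LM1 (0.38, 0.84 and 0.78) and was also higher in deprived LM1-LM (44.05 to 47.6 CPM, against 27.46 to 31.11), and Pstk fell in every line (-0.21, -0.47, -0.81 and -0.89). The counts were 1 higher with 3, 4, 4 and 5 lower, of 7.

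Of 8 regulators and sentinel targets of NRF2, 5 were higher in each line after deprivation, with 2 lower in MYAZ16.1e and 3 in the others (median log2 fold change 0.33, 0.62, 1.049 and 1.15). Hmox1, heme oxygenase, rose by 2.12, 3.03, 3.85 and 3.83, and Slc7a11, the cystine transporter subunit, by 3.42, 2.94, 3.98 and 3.93. The response of LM1 was larger than that of Myc310 by 0.81 for Hmox1 and 1.03 for Slc7a11 (edgeR adjusted p = 5.165e-12 and 9.341e-11). Nqo1, a quinone reductase, was among those lower in the Myc310 lineage, with means of 3.807 CPM in control and 2.648 in deprived Myc310, 5.952 and 4.159 in LM1, and 6.262 and 4.69 in LM1-LM. In control medium Nqo1 was lower in Myc310, LM and LM-LM than in MYAZ (log2 fold changes -1.81, -0.88 and -1.28), and Hmox1 was higher (0.55, 0.88 and 0.86).

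Over the 15 group means, the members most alike were Prdx2 and Prdx5 (Pearson r = 0.896 on log2 CPM), then Prdx5 and Prdx6 (0.8387) and Prdx2 and Prdx6 (0.8078), and the least alike were Prdx2 and Txnrd2 (-0.7592). The groups share lines and media, so these are descriptions. Of the 9091 genes whose log2 CPM averaged 3 or more, those most like Srxn1 were Sys1 (r = 0.9343), Flna (0.9337), Gorasp2 (0.9206), Col7a1 (0.92) and Gpr107 (0.9175). Those most like Txnrd1 were Fbxo30 (0.9359), Morf4l2 (0.9086), Ywhah (0.9059), Mplkip (0.9012) and Atp6v0e (0.901).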

How the data were processed

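Messenger RNA of 45 cultures was measured. The deposited table holds whole-number counts per gene; per the study's methods the authors ran the nf-core RNAseq pipeline with STAR for alignment and RSEM for quantification, against GRCm38 per the labels, from a directional poly(A) library. Genes with similar copies can share reads: Txn-ps1 reached 2 counts in any library, and Prdx6b, Prdx6-ps2 and Prdx2-rs3 are not analysed here.

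Counts were tested as deposited with edgeR 4.0.16 in R 4.3.3 (quasi-likelihood test, TMM, filterByExpr, Benjamini-Hochberg adjustment over all genes tested, threshold 0.05): subtype over 30 control libraries, 8 line-by-medium groups over 24, and NDI1 over 6. CPM was scaled over all 45 libraries. The members and lists were chosen with earlier results of these data known. All members were examined in every comparison, and those not named in one are covered there by a range or count. Of each list the text draws on up to 3 genes per comparison with the largest called change and log2 CPM averaging 1 or more, and for Srxn1 and Txnrd1 the 5 genes with the highest correlation. DESeq2 1.42.0, RLE scaling, no filter, other library sets, counts summed per line, left-out replicates or lines and a replicate block were alternatives. Steps were tested on simulated data. Library totals are given with the samples, and the members had at least 401 counts in each library.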

Additional observations from a re-analysis of the deposited data

Results flagged for a closer look

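The response to 6 h without cysteine and cystine differed between lines, by a test of the difference itself, for 25 of the 50 member results examined (edgeR adjusted p under 0.05). The same 5 contrasts called 40.3%, 52.2%, 54.8%, 24.5% and 0.769% of all genes (Myc310, LM1 and LM1-LM each against MYAZ16.1e, LM1 against Myc310, and LM1-LM against LM1), and they share lines. Values are log2 differences of responses. Between Myc310 and MYAZ16.1e they were -0.31 for Prdx2, -0.22 for Prdx3, -0.27 for Prdx5 and -0.32 for Prdx6. Between LM1 and MYAZ16.1e they were 0.21 for Prdx1, -0.36 for Prdx2, -0.17 for Prdx3, -0.38 for Prdx5, -0.43 for Prdx6, 0.14 for Txn1, 0.31 for Txnrd1 and 0.56 for Srxn1. Between LM1-LM and MYAZ16.1e they were 0.27, -0.38, -0.17, -0.38, -0.46, 0.16, 0.33 and 0.64 for the same genes in that order. Between LM1 and Myc310 they were 0.14 for Prdx1, -0.11 for Prdx6, 0.12 for Txn1, 0.29 for Txnrd1 and 0.52 for Srxn1.

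In 1 of the 30 sets of 9 control libraries (10 genes in MYAZ, LM and LM-LM), a library stood apart from the rest: Txn1 was at 485.8 CPM in culture 2 of LM3-LM, and the nearest of the other LM-LM libraries was at 454.9. Chance flags about 1 in 20 such sets.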

How the results depend on the processing

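With the counts of each line summed, the members called against MYAZ numbered 0 for Myc310, 2 for LM and 3 for LM-LM. The single call between LM and Myc310, Prdx6, became 0 without a filter on low counts, with the replicate block and with summed counts. Replicate numbers did not pair the cultures: deviations of same-numbered libraries correlated between -0.053 and 0.045 in the deprivation and NDI1 sets, and between -0.118 and 0.109 across subtypes. The block also lost Txnrd1 between LM-LM and MYAZ, and moved no other member's call. Leaving out replicates or lines gave 4 to 7 calls between Myc310 and MYAZ, 0 to 2 between LM and Myc310, 0 to 2 between LM-LM and LM, and 3 to 4 for the response of LM1 against Myc310. Between Myc310 and MYAZ the lowest count came without replicate 1 or 2, between LM and Myc310 2 were called without LM1 (Prdx2 and Prdx6), and between LM-LM and LM 2 without LM3-LM. In the response of LM1 against Myc310, Prdx1 and Txn1 were lost without replicate 2 and Prdx1 and Prdx6 without replicate 3. The response of Myc310 lost Prdx5 without replicate 2, and those of LM1 and LM1-LM against MYAZ16.1e lost Prdx3 without replicate 1. The causes were not tested.

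No called value changed sign in any alternative run. The values that changed sign were not called with all libraries. Txn1 was, however, called lower than in MYAZ in Myc310, LM and LM-LM without the line MYAZ12.3i, at the lowest values given for it here. Txn1 between LM-LM and MYAZ became 0.0051 without a filter, 0.0094 with summed counts and 7.6e-05 with the libraries of those groups alone. With only the libraries compared, Prdx1 between LM-LM and LM became -0.0013, Prdx3 in deprived MYAZ16.1e 0.0055 and Txnrd1 in deprived Myc310 0.00042. For the response of LM1-LM against LM1, Prdx3 became -0.0036 with RLE, -0.0047 without a filter, -0.0032 with DESeq2 and -0.0060 with those lines alone, and Prdx5 -0.0037, -0.0047, -0.0029 and -0.0057.

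With replicates or lines left out, values spanned these ranges. Between Myc310 and MYAZ, Prdx6 spanned -0.072 to 0.026, Txn1 -0.22 to 0.0028 and Txnrd1 -0.0081 to 0.096. Between LM and MYAZ, Prdx2 spanned -0.14 to 0.022 and Txn1 -0.16 to 0.057. Between LM-LM and MYAZ, Prdx5 spanned -0.074 to 0.031 and Txn1 -0.15 to 0.072. Between LM and Myc310, Prdx4 spanned -0.081 to 0.050 and Txnrd1 -0.0043 to 0.049. Between LM-LM and LM, Prdx1 spanned -0.061 to 0.037, Prdx2 -0.11 to 0.045, Prdx4 -0.052 to 0.083, Txn1 -0.0010 to 0.038, Txnrd1 -0.0035 to 0.083, Txnrd2 -0.014 to 0.11 and Srxn1 -0.15 to 0.12. Prdx3 in deprived MYAZ16.1e spanned -0.047 to 0.021. For the response of Myc310 against MYAZ16.1e, Prdx4 spanned -0.17 to 0.011, Txn1 -0.0027 to 0.062 and Txnrd1 -0.00038 to 0.036. For LM1 against MYAZ16.1e Prdx4 spanned -0.13 to 0.030, and for LM1-LM Prdx4 spanned -0.087 to 0.067 and Txnrd2 -0.0099 to 0.13. For LM1 against Myc310 Txnrd2 spanned -0.020 to 0.077. For LM1-LM against LM1, Prdx2 spanned -0.070 to 0.029, Prdx3 -0.022 to 0.040, Prdx5 -0.15 to 0.085, Txnrd1 -0.023 to 0.071 and Srxn1 -0.011 to 0.14.

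Calls between subtypes rest on few lines, and Myc310 is 1 line, so its fit with summed counts takes its spread from the other groups. The calls that held under every alternative were Txnrd2 and Srxn1 for LM against MYAZ, Prdx3, Txnrd2 and Srxn1 for LM-LM against MYAZ, and, after deprivation, 6 of 6 in MYAZ16.1e, 9 of 9 in Myc310, 8 of 10 in LM1 and 7 of 9 in LM1-LM. Of the differences in response, 3 of 4 held for Myc310 against MYAZ16.1e, 7 of 8 for LM1, 7 of 8 for LM1-LM, and Txnrd1 and Srxn1 for LM1 against Myc310.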
